A study of Mus musculus with 19 samples.

Results

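A set of 10 genes of the intracellular calcium store was followed in ribosome profiling and RNA-seq libraries of mouse hippocampal slices: the IP3 receptors Itpr1, Itpr2 and Itpr3, the ryanodine receptors Ryr1, Ryr2 and Ryr3, the junctophilins Jph3 and Jph4, the pump SERCA2 (Atp2a2) and the store sensor Stim2. They were chosen by name for their roles at the calcium store of the endoplasmic reticulum (ER), with earlier results of these data known. All 10 were found among the 20436 genes of both count tables. The slices came from wild-type male mice that the sample labels give as 28 to 42 days old. They were exposed for 5 min to 100 µM DHPG, an agonist of group I metabotropic glutamate receptors, or for the same time to the vehicle alone (basal), and both groups were then put in cycloheximide at 100 µg/ml, which stops ribosomes on the mRNA. Each replicate pooled slices of 6 mice, with field CA3 kept, so that a library mixes all cell types of the slice. There were 4 basal and 5 DHPG RNA libraries, and 5 basal and 5 DHPG libraries of ribosome-protected fragments (RPFs), 19 in all. The comparison asks whether these genes of the calcium store changed in mRNA level or in ribosome occupancy within minutes of receptor activation.

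Group I metabotropic glutamate receptors act through Gq and phospholipase C, which makes IP3, the ligand of the IP3 receptors in the ER membrane. Ryanodine receptors release calcium from the same store in response to calcium itself, SERCA2 pumps it back, and STIM proteins sense the fall of calcium in the ER lumen and open calcium channels of the plasma membrane. Junctophilins tie the ER to the plasma membrane, which places ryanodine receptors next to the channels of the cell surface, and Jph3 and Jph4 are the members known from brain.

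The genes fall into very long and shorter mRNAs. On the mm10 assembly, Itpr1 lies at chr6:108213096-108551109 on the plus strand, Itpr2 at chr6:146108299-146502223 on the minus strand and Itpr3 at chr17:27057304-27122223 on the plus strand, with coding sequences of 8250, 8106 and 8013 nt. Ryr1 lies at chr7:29003344-29125179, Ryr2 at chr13:11553102-12106945 and Ryr3 at chr2:112631355-113217096, all on the minus strand, and their coding sequences of 15108, 14901 and 14607 nt are spread over 106, 105 and 104 exons. Jph3 (chr8:121729623-121794276, plus strand) and Jph4 (chr14:55106826-55116935, minus strand) have only 2235 and 1887 coding nt in 5 and 6 exons, and the highest coding GC content of the set, 63.6% and 67.3%. Atp2a2 (chr5:122453513-122502225, minus strand) has 3135 coding nt and Stim2 (chr5:53998499-54121057, plus strand) 2241, at 49.6% and 51% GC. The coding sequences of the 6 channels have a GC content between 49.4% (Ryr2 and Ryr3) and 57.8% (Ryr1).

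The sequences around the start codons are shown because footprints per RNA differed widely among these genes. Each line gives 12 bases before the start codon and 12 from its first base, read 5′ to 3′ on the sense strand of the GENCODE reference transcript, with capitals for the base at −3 and for the start codon with the base after it.
Itpr1: tccaacacgGacATGTctgacaaa
Itpr2: gcgtgaagcAgcATGTctgacaaa
Itpr3: agggccgaaGccATGAatgaaatg
Ryr1: gggattgccAtcATGGgtgatgga
Ryr2: gagcgcggaGccATGGctgatgcg
Ryr3: gccctgggaGccATGGccgaagcg
Jph3: cgcgttacaTgcATGTccagtggg
Jph4: ccaactacaTgcATGTcccccggg
Atp2a2: gcccccgcaGccATGGagaacgct
Stim2: cgctgggcaGcaATGCtgctcttc
A purine at −3 and a G after the start codon are the best known features of a strong start site in vertebrates. The 3 ryanodine receptors and Atp2a2 have both, as do 42% of the 19540 start windows read. Both junctophilins have T at each of these places, while Itpr1, Itpr2, Itpr3 and Stim2 have the purine but not the G. A purine at −3 was present in 85% of all windows.

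Levels are given as CPM (the count scaled to the size of the library) divided by length in kb, where the length is that of the transcript for RNA and of the counted coding part for RPFs. In basal RNA, Atp2a2 was the most abundant of the 10 at 258 ± 34.6 CPM per kb (SD, n = 4), a level above 98.4% of the genes tested. Jph4 (114 ± 25.3), Jph3 (109 ± 24.7) and Itpr1 (94.7 ± 24.9) followed, and the libraries of neighbours in this order overlapped, so that these 3 RNAs could not be ranked. Ryr2 (33.9 ± 7.17) and Stim2 (23.0 ± 5.30) overlapped too, although Ryr2 was the higher in 4 of 4 libraries. Ryr3 (6.34 ± 0.930) and Itpr2 (5.61 ± 1.14) were at similar levels, Ryr1 reached 0.963 ± 0.213, and Itpr3 was last at 0.386 ± 0.0774, with only 17 to 26 counts in a basal library.

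In basal RPFs the ends of the order were the same and its middle was not. Atp2a2 led with 434 ± 51.9 CPM per kb (SD, n = 5), followed by Jph4 (66.7 ± 12.7), Stim2 (53.6 ± 3.72) and Itpr1 (48.0 ± 1.99). Jph4 and Stim2 overlapped, as did Stim2 and Itpr1, but in each of the 5 libraries the order was Jph4, Stim2, Itpr1. Jph3 came next at 27.1 ± 4.42, below Stim2 in RPF although its RNA was higher than that of Stim2. From there on no neighbours overlapped: Ryr2 had 17.0 ± 0.707, Itpr2 3.97 ± 0.538, Ryr3 1.97 ± 0.141, Ryr1 0.367 ± 0.0501 and Itpr3 0.172 ± 0.0583. The Itpr3 values rest on 5 to 28 counts in a basal library.

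**Figure D1:**
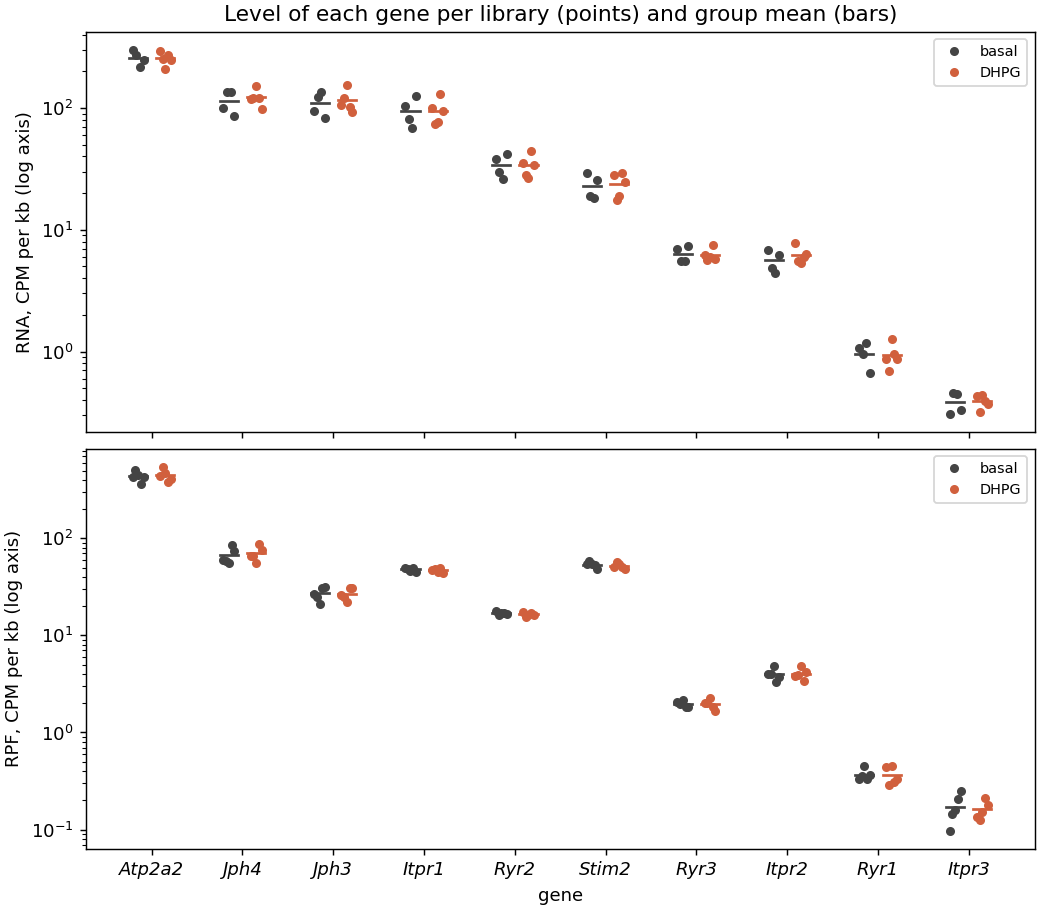
Level of each gene in CPM per kb (log axis) in every RNA library (top) and RPF library (bottom), basal in grey and DHPG in orange, with bars at the group means. The genes span from 0.386 to 258 CPM per kb in basal RNA, and basal and DHPG libraries overlap for every gene in both assays.

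One paralog made up most of each receptor family. Itpr1 held 92.4% to 95.3% of the IP3 receptor RNA per length across the 9 RNA libraries, and 90.1% to 93.4% of the RPFs across 10 libraries. Itpr2, the receptor known from astrocytes, held 4.39% to 7.16% of the RNA and 6.23% to 9.64% of the RPFs. Itpr3 held at most 0.613% of either. Among the ryanodine receptors, Ryr2, the form known from heart and brain, held 78.7% to 84.1% of the RNA and 85.5% to 89.1% of the RPFs, Ryr3 14.1% to 17.6% and 9.12% to 12.1%, and Ryr1, the form of skeletal muscle, 1.35% to 3.74% and 1.59% to 2.38%. In pooled slices, fewer cells of a type and less RNA per cell cannot be told apart.

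In the mean of the basal replicates, 9 of the 10 genes had fewer footprints per RNA than the median gene. The ratio is log2 RPF less log2 RNA, both per length, less the median over 12229 genes in the same replicate. The interquartile range of all genes ran from −0.94 to 1.04. Stim2 was the only one of the 10 above the median, at 0.39 ± 0.36 (SD, n = 4). Atp2a2 was near the median at −0.13 ± 0.25, with replicates from −0.35 to 0.13. With the longest transcript of each gene as the RNA length, Atp2a2 was at 0.03. Between Atp2a2 and the next gene, Itpr2, the replicates did not overlap, whereas each later neighbour in the order overlapped with the one before. Itpr2 was at −1.35 ± 0.45, Jph4 at −1.70 ± 0.60, Itpr1 at −1.81 ± 0.33 and Ryr2 at −1.86 ± 0.27. Itpr3 (−2.26 ± 0.47), Ryr1 (−2.27 ± 0.28) and Ryr3 (−2.54 ± 0.26) lay below the 5th percentile of all genes, −2.18.

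Jph3 had the lowest ratio, −2.95 ± 0.57, which is 0.129 of the footprints per RNA of the median gene and the 1.19th percentile. Its basal ratios in replicates 1 to 4 were −2.68, −3.19, −3.61 and −2.31, and those of Jph4 were −1.63, −2.07, −2.21 and −0.88. Replicates 2 and 3 were thus low and replicate 4 was high for both junctophilins. Itpr1 ran the other way, with −1.95, −1.62, −1.47 and −2.20, and Ryr2 with −1.94, −1.75, −1.56 and −2.18. In each replicate Jph3 was lower than Jph4. The ratios of the DHPG libraries fell in the same places, for example −2.96 ± 0.50 for Jph3, −1.87 ± 0.30 for Itpr1 and −0.07 ± 0.30 for Atp2a2 (SD, n = 5). Footprints within 30 nt of either end of a coding sequence were not counted, and lengths are those of 1 annotated transcript a gene, so a ratio depends on that choice of transcript.

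**Figure D2:**
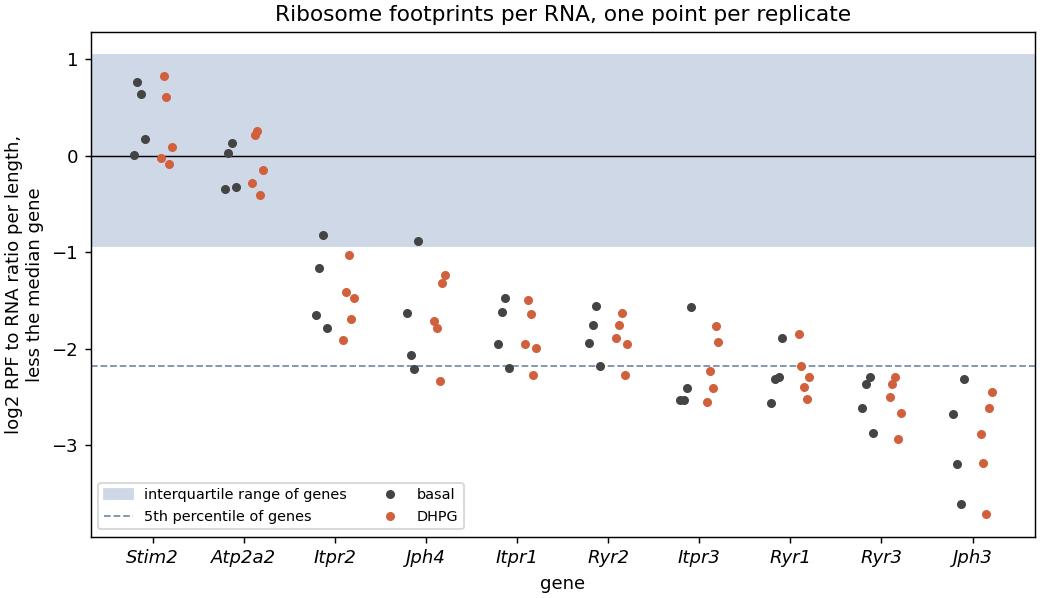
Log2 RPF to RNA ratio per length, less the median gene, for each gene with 1 point a replicate (basal grey, DHPG orange), over a band for the interquartile range of all genes and a dashed line at the 5th percentile (−2.18). Stim2 and Atp2a2 lie in the band and Jph3 is lowest at −2.95.

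The start context of the junctophilins was uncommon, and its part in their ratios was not tested. Over the genes with a ratio and a start window, 4.53% have T at −3, with a median ratio of −0.16, against 0.06 for the 10326 genes with a purine there. The 79 genes with T both at −3 and after the start codon had a median of −0.05, with an interquartile range from −0.82 to 0.73. In both junctophilins the T at −3 lies within another ATG, out of frame with the start codon. Genes were not sorted by such an ATG here.

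None of the 10 genes passed the test after DHPG, in RNA, in RPF or in the ratio of both. In edgeR with replicate number as a block, 1 of 12935 genes passed an adjusted p of 0.01 in RNA (0.00773%), 29 of 13208 passed 0.05 in RPF (0.22%), and 0 of 12691 passed 0.05 in translation efficiency (TE, the change in RPF less that in RNA; 0%). At an unadjusted p under 0.05 in edgeR, 2 of the 10 genes were found in RNA, 1 in RPF and 1 in TE, where 8.02%, 10.8% and 6.77% of all genes tested were. DESeq2 with the same block called 0 of the 10 in RNA and 0 of the 3 in RPF (Itpr1, Ryr2 and Atp2a2) to which it gave an adjusted p. Of all genes with an adjusted p there, 0% passed in RNA and 2.65% in RPF. After batch correction by ComBat, DESeq2 called 0 of 8 in RNA and 0 of 6 in RPF, and gave the others no adjusted p. Among all genes, 1.77% and 9.48% passed there, so 0 calls among so few members carry little weight. Jph3 RNA had a DESeq2 adjusted p of 0.0161 in that setting. TE was tested with edgeR alone. Of the 10, 7 had a higher and 3 a lower fitted value in RNA (median 0.019 on the log2 scale, against 0.007 over all genes). The split was 4 and 6 in RPF (median −0.016 against 0.003), and 1 and 9 in TE (median −0.069 against −0.001). Over all genes tested, 52.1% were higher in RNA, 51.4% in RPF and 49.5% in TE. The lower TE values include Ryr3 at −0.003, which was higher in 3 of 4 pairs. In the fits with the block, p-values measure how far the DHPG less basal difference varied between replicate pools. They do not measure the spread in level between pools.

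**Figure D3:**
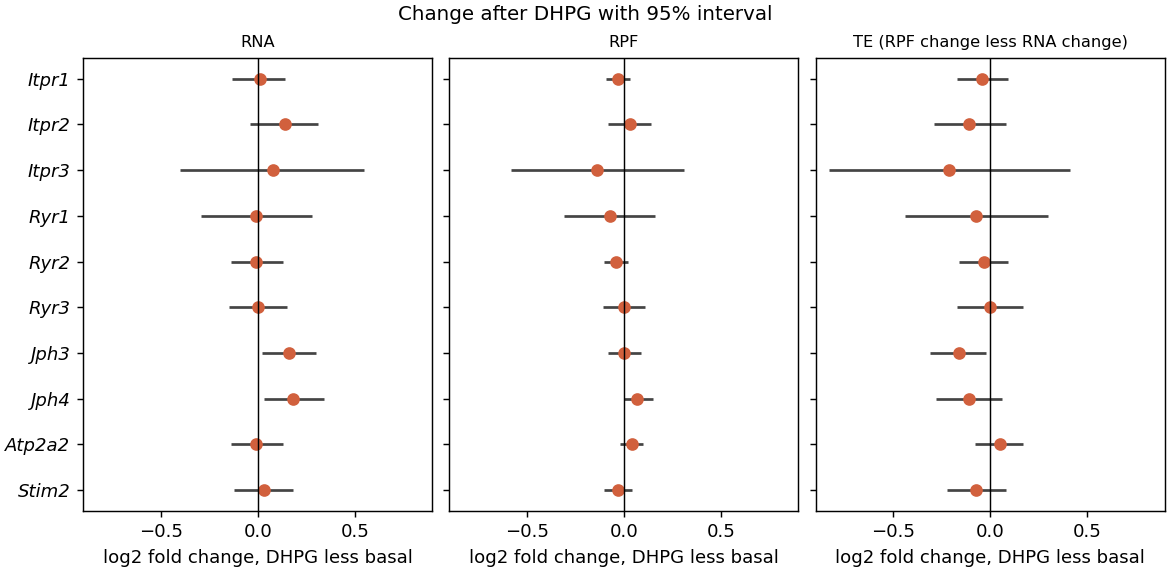
Log2 fold change after DHPG of each gene in RNA, RPF and TE (points) with 95% intervals (lines) from edgeR with replicate number as a block. The intervals of Jph3 and Jph4 in RNA, of Jph4 in RPF and of Jph3 in TE leave out 0 before adjustment, and none of the 10 genes passed after it.

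Itpr1, the main IP3 receptor of neurons and the one at the receiving end of the DHPG signal, was measured with a small error in RPF. Its RPFs were 405, 400.1, 381, 409.5 and 372 CPM in basal replicates 1 to 5 and 388.5, 397, 373, 408 and 358 CPM after DHPG. The DHPG library was the lower in 5 of 5 pairs, by at most 0.06 on the log2 scale, and the groups overlapped. The fitted change was −0.03 (standard error, SE, 0.029; edgeR adjusted p = 0.76), with a 95% interval from −6.07% to 1.93%. Itpr1 RNA was 1033, 808, 670.5 and 1228 CPM in basal replicates 1 to 4 and 992, 732, 752, 1287 and 940 CPM in DHPG replicates 1 to 5. The spread between replicates was thus far larger in RNA than in RPF, and the pairs moved in both directions. The fitted change in RNA was 0.01 (SE 0.066, edgeR adjusted p = 0.986).

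Itpr2 RPFs were 32.3, 32.3, 38.55, 26.85 and 29.7 CPM in basal and 30.45, 31.1, 39.2, 27.6 and 33.8 CPM in DHPG libraries, a fitted change of 0.03 (95% interval −0.08 to 0.14, edgeR adjusted p = 0.887). Its RNA was 57.35, 40.6, 37.04 and 51.95 CPM in basal and 64.8, 46.4, 44.5, 50.02 and 53.1 CPM in DHPG libraries, higher in 3 of 4 pairs, with a fitted change of 0.14 (95% interval −0.04 to 0.31, edgeR adjusted p = 0.697). Neither exceeded the replicate spread. Itpr3, a receptor better known from epithelia, had 0.776 to 1.99 CPM of RPFs in basal and 1.01 to 1.70 CPM in DHPG libraries. With so few counts its interval in RPF ran from −0.58 to 0.31 on the log2 scale, so that changes of that size were not detectable at this depth. Itpr3 RNA was 2.78, 4.12, 4.01 and 2.965 CPM in basal and 3.87, 2.885, 3.92, 3.51 and 3.36 CPM in DHPG libraries, a fitted change of 0.08 (95% interval −0.40 to 0.55).

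None of the ryanodine receptors passed either. Ryr2 RPFs were 268, 239, 251, 252 and 248 CPM in basal and 259, 232, 239, 254 and 240.4 CPM in DHPG libraries. They were lower after DHPG in 4 of 5 pairs, replicate 4 being the exception, with a fitted change of −0.04 (SE 0.030, edgeR adjusted p = 0.672) and an interval from −6.88% to 1.42%. Ryr2 RNA was 637, 497, 441 and 701 CPM in basal and 597, 476.5, 448, 751 and 576 CPM in DHPG libraries. Its 4 pairs split evenly and the fitted change was −0.01 (95% interval −0.14 to 0.13, edgeR adjusted p = 0.988).

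Ryr3 RPFs were 30.3, 28.8, 31.15, 26.85 and 26.5 CPM in basal and 29.2, 29.5, 33.1, 26.4 and 24.1 CPM in DHPG libraries, and its RNA 108, 86.3, 85.05 and 113 CPM in basal and 96.01, 87.4, 92.1, 116 and 89.5 CPM in DHPG libraries. Both fitted changes were 0.00 to 2 decimals, with intervals of −0.11 to 0.11 in RPF and −0.15 to 0.15 in RNA. The annotated exons of Ryr3 share 916 nt with those of Aven on the opposite strand, and whether counting used strand is not given in the sources used here. Aven had 6.70 CPM in RNA and 5.34 CPM in RPF, well below Ryr3. Ryr1 RPFs were 4.97, 5.298, 6.81, 5.02 and 5.49 CPM in basal and 6.59, 4.296, 6.73, 4.62 and 4.94 CPM in DHPG libraries, where replicate 3 was the highest in both groups, and the fitted change was −0.07 (95% interval −0.31 to 0.16, edgeR adjusted p = 0.868). Ryr1 RNA was 16.3, 14.6, 17.9 and 10.3 CPM in basal and 13.3, 10.7, 19.4, 14.6 and 13.45 CPM in DHPG libraries, a fitted change of −0.01 (95% interval −0.29 to 0.28). Ryr1 also shares 864 exon nt with an antisense gene, so reads of the pair may not be separated.

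The junctophilins had the largest fitted RNA values of the 10 in this fit, both higher after DHPG, and neither passed. Jph4 RNA was 448.5, 606, 609.7 and 384 CPM in basal replicates 1 to 4 and 533, 545, 678, 538 and 443 CPM in DHPG replicates 1 to 5. It was higher in 3 of 4 pairs and lower in replicate 2, and the fitted change was 0.18 (SE 0.077, unadjusted p = 0.0231, edgeR adjusted p = 0.575). Without replicate 2 it was 0.30 and without replicate 4 it was 0.08 (edgeR adjusted p = 0.0393 and 0.991), so its size rests on which replicates are kept. Jph3 RNA was 341, 446, 496 and 302 CPM in basal and 386, 443, 559, 373 and 335 CPM in DHPG libraries, also higher in 3 of 4 pairs with replicate 2 nearly level. Its fitted change was 0.16 (SE 0.068, unadjusted p = 0.0238, edgeR adjusted p = 0.577). Without the block the values were 0.08 for Jph3 and 0.10 for Jph4.

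Jph4 RPFs were 108, 108, 102, 156.5 and 135 CPM in basal and 121, 119, 102, 162 and 139.9 CPM in DHPG libraries, higher in 5 of 5 pairs. The fitted change was 0.07 (SE 0.035, unadjusted p = 0.0409, edgeR adjusted p = 0.439), or an increase of 0.222% to 10.6% by its 95% interval. Jph3 RPFs were 58.2, 53.65, 46.1, 67.2 and 69.4 CPM in basal and 57.3, 54.4, 47.6, 67.6 and 67.02 CPM in DHPG libraries. Their pairs differed by at most 0.05 on the log2 scale and the fitted change was 0.00 (95% interval −0.08 to 0.09). The TE value of Jph3 was −0.16 (SE 0.071, unadjusted p = 0.0315, edgeR adjusted p = 0.718), lower in 3 of 4 pairs, and that of Jph4 was −0.11 (SE 0.085, edgeR adjusted p = 0.837).

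Atp2a2, which refills the store, had RPFs of 1313, 1562, 1377, 1118 and 1307 CPM in basal and 1353, 1664, 1437, 1160 and 1265 CPM in DHPG libraries. They were higher in 4 of 5 pairs, and the fitted change was 0.04 (SE 0.029, edgeR adjusted p = 0.663), with an interval from −1.25% to 7.06%. Its RNA was 1331, 1214, 965 and 1113 CPM in basal and 1314, 1129, 945, 1217 and 1118 CPM in DHPG libraries, a fitted change of −0.01 (95% interval −0.14 to 0.13). Atp2a2 was the 1 gene of the 10 with a TE value above 0, at 0.05 (95% interval −0.08 to 0.17). Stim2, the sensor of small falls in store calcium, had RPFs of 118, 128, 118.5, 115 and 106 CPM in basal and 111, 126, 118, 109.7 and 105 CPM in DHPG libraries. They were lower in 5 of 5 pairs, by 0.01 to 0.08, and the fitted change was −0.03 (SE 0.035, edgeR adjusted p = 0.779). Stim2 RNA was 144, 92.9, 90.45 and 125 CPM in basal and 140.1, 86.6, 93.8, 143 and 122 CPM in DHPG libraries, with a fitted change of 0.03 (95% interval −0.12 to 0.18).

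These RNAs differed more between replicates than between treatments, and the junctophilins differed in the opposite direction from most of the set. With basal and DHPG libraries averaged, Itpr1 RNA deviated from its mean over replicates by 0.15, −0.25, −0.36 and 0.46 on the log2 scale in replicates 1 to 4, and Ryr2 RNA by 0.14, −0.20, −0.33 and 0.38. Jph3 RNA deviated by −0.18, 0.11, 0.36 and −0.29 and Jph4 RNA by −0.13, 0.10, 0.26 and −0.24. Stim2 followed Itpr1 in sign in all 4 replicates. Over 12457 genes, the deviation correlated with the GC content of the transcript with a Spearman rho of −0.45, 0.35, 0.68 and −0.60 in replicates 1 to 4 (across genes, which share the libraries). The transcripts of Jph3 and Jph4 have 60.5% and 60.3% GC, those of Itpr1, Ryr2 and Stim2 49.5%, 49.6% and 47.4%. The other GC-rich RNAs followed the junctophilins less closely. Ryr1 (58% GC) deviated by 0.04, −0.19, 0.37 and −0.22, with the sign of the junctophilins in replicates 3 and 4 only, and Itpr3 (57.5% GC) by −0.07, −0.01, 0.18 and −0.10. In RPF the corresponding rho with coding GC content was 0.08, −0.40, −0.47, 0.35 and 0.45 in replicates 1 to 5, and Jph4 RPFs deviated by −0.11, −0.13, −0.28, 0.36 and 0.15.

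With each library's trend with GC content removed before the fit, the RNA change was 0.10 for Jph3 and 0.12 for Jph4 (edgeR adjusted p = 0.674 and 0.648), and the RPF change of Jph4 was 0.01 (edgeR adjusted p = 0.919). Itpr1 and Ryr2 had the most even RPFs of the set, with a range between replicates of 0.16 for both, where the median gene had 0.33. In RNA the same genes ranged over 0.82 and 0.71, above the median of 0.48.

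**Figure D4:**
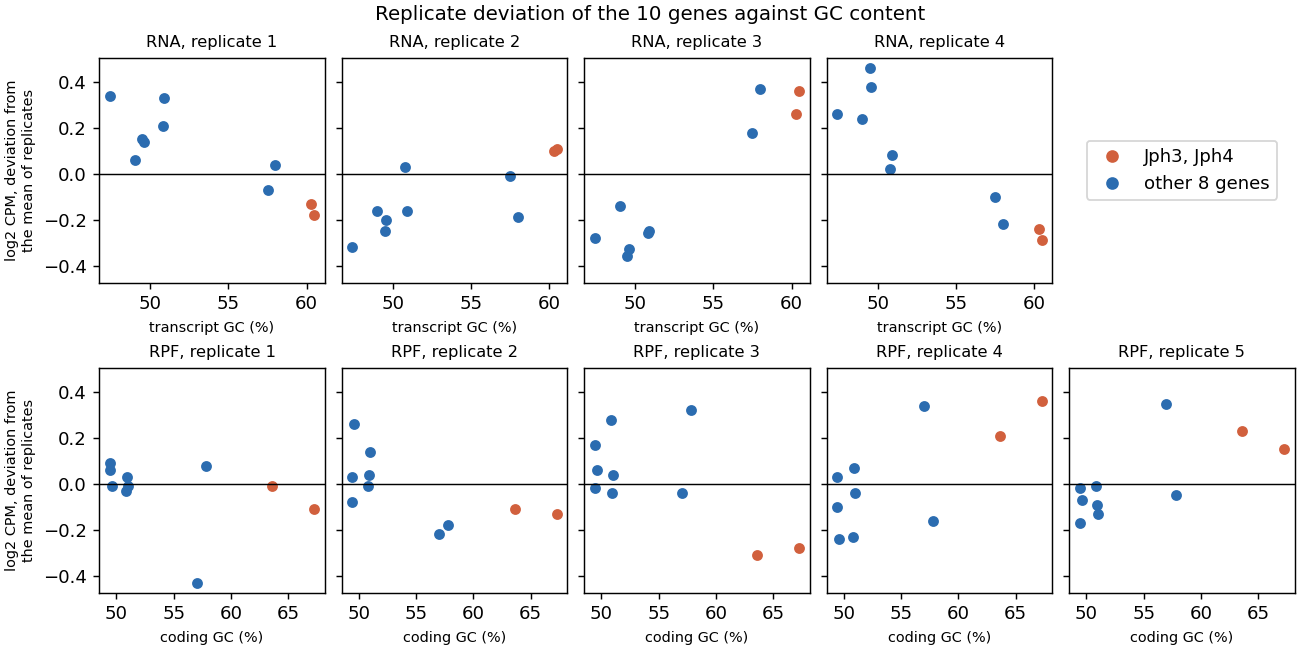
Deviation of each gene's log2 CPM from its mean over replicates, basal and DHPG averaged, against the GC content of its transcript (RNA, replicates 1 to 4) or coding sequence (RPF, replicates 1 to 5). In RNA, Jph3 and Jph4 (orange, 60.5% and 60.3% GC) lie on the other side of 0 from Itpr1, Ryr2 and Stim2 in every replicate.

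Over the 10 RPF libraries, each gene was set beside the gene whose log2 CPM was most like its own. The closest were Abhd8 for Jph4 (Pearson r = 0.981), Nr1h2 for Jph3 (0.972), 3632451O06Rik for Atp2a2 (0.986), Eif1ax for Stim2 (0.967), Arhgef28 for Itpr3 (0.958), Zfp945 for Ryr3 (0.950), Cdc5l for Ryr2 (0.939), Trappc12 for Itpr2 (0.937), Prkag2 for Itpr1 (0.917) and P2ry13 for Ryr1 (0.911). These are descriptions over libraries that share replicate numbers and GC trends. None of the 10 genes was the closest gene of another.

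The other genes of store calcium did not pass either. Of 98 genes in 6 lists, 90 were in the tables under these names and 80 were tested in RNA and 80 in RPF, and edgeR called 0 in each. At an unadjusted p under 0.05 they gave 2 higher and 3 lower in RNA, and 8 higher and 0 lower in RPF. With both directions together these are 6.25% and 10% of the genes tested in the lists, below the 8.02% and 10.8% of all genes. By direction, all genes gave 673 higher and 364 lower of 12935 in RNA, and 865 and 556 of 13208 in RPF. The smallest adjusted p of the lists in RPF was 0.226 in edgeR. Among the IP3 metabolism and IP3 receptor regulators, 10 of 16 were higher and 6 lower in RPF (median 0.015), including Grina (0.04, edgeR adjusted p = 0.617) and Tmbim6 (0.08, edgeR adjusted p = 0.307), membrane proteins of the same family that act on store calcium. Among ryanodine receptor and junction partners, 12 of 16 were higher in RPF (median 0.033), with 0.01 for Calm2 (edgeR adjusted p = 0.934).

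Pumps, exchangers and SERCA regulators split 8 to 6 in RPF (median 0.019), with −0.01 for Atp2b1, a calcium pump of the plasma membrane, and 0.05 for Slc8a2, a sodium-calcium exchanger. In store-operated entry 7 of 10 were higher (median 0.033). Saraf, which slows that entry, had RPFs of 411 ± 19.6 CPM in basal and 436 ± 30.7 CPM in DHPG libraries (SD, n = 5 each) and a fitted change of 0.08 (edgeR adjusted p = 0.277), higher in 5 of 5 pairs, while Stim1 had −0.01. Of the ER luminal calcium-binding proteins 11 of 13 were higher in RPF (median 0.024), with 0.05 for Hspa5 and 0.05 for Canx, both ER chaperones. In mitochondrial calcium uptake 3 of 11 were higher (median −0.015), with −0.01 for Vdac1 and −0.03 for Hspa9. Over all genes tested in RPF, 51.4% were higher. With ComBat and DESeq2, 2 of the 53 of these genes with an adjusted p passed in RNA (3.77%) and 5 of 48 in RPF (10.4%), where 1.77% and 9.48% of all genes with an adjusted p did.

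In footprints per RNA, the luminal proteins of the store stood at the other end from its 6 channels. The median basal ratio was 1.59 for 13 ER luminal calcium-binding proteins, where the lowest, Rcn3, was at 0.35, above 9 of the 10 genes, all but Stim2. The 10 genes had a median of −1.84. Medians of the other lists lay between −0.44 for pumps, exchangers and SERCA regulators and for store-operated entry, and 0.49 for IP3 metabolism and IP3 receptor regulators. Individual genes reached as low as the channels, such as Itpka, the IP3 kinase of neurons, at −2.59, and Slc8a3 at −2.32. All these ratios are per length. Without division by length the 6 channels lay between −1.58 (Ryr3) and −0.35 (Itpr2). The part of their long coding sequences in the ratios was not tested.

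The slices carried the marker RNAs of CA1, CA3 and dentate neurons, glia and vessels in both groups. RNA libraries held between 4870813 and 7793244 counts, and RPF libraries between 5692064 and 22092434. In RPF the summed level of 6 thalamus markers was 135 to 168 CPM in basal and 140 to 220 CPM in DHPG libraries, with 6 of 6 higher by the fit, and that of 6 oligodendrocyte markers 3988 to 8389 and 4599 to 9449 CPM, with 5 of 6 higher. Of 6 astrocyte and 6 microglia markers, 6 and 6 were higher in RPF, with sums of 1923 to 2290 and 298 to 433 CPM in basal and 2007 to 2395 and 350 to 468 CPM in DHPG libraries. Of 6 endothelial and mural markers 1 was higher, with sums of 62.6 to 79.6 CPM in basal and 57.7 to 75.3 CPM in DHPG libraries. In RPF 3 of 5 CA1, 3 of 6 CA3 and 4 of 6 dentate markers were higher. Of the neuron and interneuron markers, 3 of 6 and 3 of 6 were. Over all genes tested in RPF the share higher was 51.4%. The basal and DHPG ranges overlapped for each of these lists. Markers of Purkinje cells, which are rich in Itpr1, were at most 56.3 CPM in sum in RPF, with Pcp2 and Ppp1r17 under 1 CPM. Of 6 choroid plexus and ependyma markers, Ttr, Folr1, Ccdc153 and Otx2 were under 1 CPM, and Kl and Foxj1 were not. The RPF sum of this list was 16.5 to 20.3 CPM in basal and 16.0 to 22.8 CPM in DHPG libraries. The part of these cells in the values of the 10 genes was not tested.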

How the data were processed

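Hippocampal slices of wild-type mice were profiled by RNA-seq and ribosome profiling after DHPG or vehicle (19 libraries, grouped by their labels). The expected counts per gene deposited by the authors came from RSEM on mm10 and were rounded to whole numbers. Reads that paralogs share were divided by RSEM, and this division is fixed in the counts. Reads had been trimmed with cutadapt, cleared of rRNA with Bowtie2 and aligned with TopHat2. RPFs were counted by the authors on coding sequences without 30 nt at each end, RNA on whole transcripts. A further 12 columns, which match none of the 19 samples, were left out. The paper also describes later wild-type batches from CA1-enriched slices, which are not among these samples. The fits here thus cover only part of its DHPG experiment. Depth limits Itpr3 and Ryr1 most. In the fits with the block, p-values measure how far the DHPG less basal difference varied between pools of slices. The labels do not tie these pools to single animals.

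DHPG was compared with basal by edgeR 4.0.16 (R 4.3.3, limma 3.58.1): quasi-likelihood F test, TMM normalization, filterByExpr and replicate number as a block, with Benjamini-Hochberg adjustment over all genes tested and thresholds of 0.01 for RNA and 0.05 for RPF and TE. TE was the interaction of library type and treatment, with replicate within library type as the block. The RNA library of DHPG replicate 5 has no basal partner and adds no pair to the blocked contrast. TE values thus set an RPF change over 5 pairs against an RNA change over 4. That library still entered the filter and the normalization, and without it the Ryr3 RNA change moved from 0.00043 to −0.0069. The TE fit did not pair RNA and RPF libraries of the same number. Same-numbered libraries deviated together from their group means (correlation 0.308 to 0.741 in RNA and 0.259 to 0.523 in RPF), and the numbers were taken to pair the samples. Correlations between libraries of different numbers are not given, so this does not show that the pairing is right. RNA and RPF libraries were matched by the numbers in their labels alone. Log2 CPM for correlations and deviations used a prior count of 2. Lengths, positions and start windows came from GENCODE M21 on mm10 (96% of 20436 genes matched), with the principal transcript of each gene.

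The members and the lists were chosen with earlier results of these data known. Named were all 10 members, from each pathway list the 2 tested genes with the highest mean RPF CPM and any gene called, and the gene most like each member in RPF. One gene that this rule names is not reported here. Alternatives were DESeq2's size factors, no filter, at least 10 counts in every library, no block, DESeq2 1.42.0 with the block, ComBat (sva 3.50.0, log2 CPM with 0.5 added) then DESeq2, removal of length trends (loess, span 0.5), each replicate left out, thresholds of 0.05 for RNA and 0.01 for RPF, and for the ratio other lengths or DHPG libraries. Removal of GC trends was chosen after seeing the data. The steps were tested on simulated data.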

Additional observations from a re-analysis of the deposited data

Results flagged for a closer look

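In 60 groups of 4 or 5 libraries (the RNA level, RPF level and ratio of the 10 genes), 2 had an outlying value, and about 3 such groups are expected by chance. Ryr1 RPFs were 6.81 CPM in basal replicate 3, against 4.97 to 5.49 CPM in the other basal libraries. The basal RPF to RNA ratio of Itpr3 was −1.57 in replicate 4, against −2.53 to −2.41 in the other replicates. Both genes had low counts, 32 to 150 RPFs of Ryr1 and 5 to 28 of Itpr3 in a basal library.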

How the results depend on the processing

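None of the 10 genes was called in RNA, RPF or TE under the alternatives that gave it an adjusted p, nor in the edgeR fit with the block at thresholds of 0.05 for RNA and 0.01 for RPF. In RPF, DESeq2 gave no adjusted p to 7 of the 10 with the block and to 4 after ComBat, which also left out Itpr3 and Ryr1 in RNA, and Itpr3 was not tested in RPF or TE with at least 10 counts in every library. The lowest adjusted p of a member was 0.0161 for Jph3 RNA (ComBat and DESeq2) and 0.0393 for Jph4 RNA (edgeR without replicate 2), which miss 0.01 but would pass 0.05. Without the replicate block, 0 genes of the whole table passed in RNA and 0 in RPF, and the paired fit called no member either. With ComBat and DESeq2, 2 pathway genes passed in RNA and 5 in RPF, named here after their values were seen: Vdac2 (−0.18) and Vdac3 (−0.19) in RNA, and Calm3 (0.05), Fkbp1a (0.08), Saraf (0.08), Thbs4 (0.13) and Tmbim6 (0.08) in RPF. The cause was not tested. Over all genes that setting called 100 in RNA and 427 in RPF, no filter 7 and 96, and DESeq2 with the block 0 and 31. Leaving out a replicate gave 0 to 22 in RNA, 3 to 71 in RPF and 0 to 8 in TE, and TE without a filter 4.

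Several log2 fold changes near 0 changed sign, none of them a called value. In RNA, Itpr1 was −0.027 with the length trend removed and Ryr2 was 0.0014 without the replicate block. Ryr3 RNA was −0.0002 with DESeq2 size factors, −0.0069 with no filter, −0.0065 with at least 10 counts, −0.026 without the replicate block, −0.0076 with ComBat and DESeq2, −0.038 with the length trend and −0.0006 with the GC trend removed. In RPF, Ryr3 was 0.011 with the GC trend removed, and Jph3 was −0.00015 without the replicate block, −0.0012 with ComBat and DESeq2 and −0.043 with the GC trend removed. In TE, Ryr3 was 0.0036 with at least 10 counts and 0.014 without the replicate block. Leaving out each replicate in turn gave RNA ranges of −0.043 to 0.058 (Itpr1), −0.073 to 0.22 (Itpr3), −0.18 to 0.095 (Ryr1), −0.047 to 0.014 (Ryr2), −0.036 to 0.051 (Ryr3), −0.054 to 0.027 (Atp2a2) and −0.033 to 0.068 (Stim2). The RPF ranges were −0.011 to 0.054 (Itpr2), −0.037 to 0.03 (Ryr3) and −0.011 to 0.016 (Jph3). The TE ranges were −0.096 to 0.01 (Itpr1), −0.23 to 0.11 (Ryr1), −0.05 to 0.033 (Ryr3), −0.24 to 0.0007 (Jph4), −0.0017 to 0.091 (Atp2a2) and −0.11 to 0.0037 (Stim2). The causes were not tested. Without division by length, the basal ratio moved by more than the replicate spread for 7 of the 10 genes, for example to −1.03 for Itpr1 and 0.37 for Atp2a2.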
